A study of Mus musculus with 14 samples.

Results

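Mup3, Mup7, Mup20 and Mup21 are 4 members of the mouse major urinary protein (Mup) family. They were chosen by symbol, with earlier results of these data known. They are 4 of the 37681 genes in the deposited count table and 4 of its 42 genes with a Mup symbol. Liver RNA of 14 mice was sequenced to compare 2 diets, one high in fat and sucrose (HFHS, 7 mice) and one low in both (LFLS, 7 mice). Libraries are named here by diet and a number from 1 to 7. Diet and tissue are the only characteristics the labels give, and the sources used here do not give the strain, sex, age, genotype or length of feeding of either group.

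Major urinary proteins are small lipocalins, barrel-shaped carriers that hold volatile pheromones in a pocket. The mouse liver makes them in large amounts and secretes them into the blood, from which the kidney passes them into urine, where they slow the release of scent. Their transcription in liver is higher in males and follows pulses of growth hormone through the receptor, the kinase JAK2 and the factor STAT5b, and it also depends on androgens, glucocorticoids and thyroid hormone. Mup20 encodes darcin, a pheromone of male urine that attracts females. Mup3 and Mup21 belong to the more divergent members at the edge of the cluster, and Mup7 belongs to its centre, where the genes are nearly identical copies. The libraries held 4 to 13 counts of Xist, the transcript of the inactive X chromosome, and 995 to 5983 counts of the Y-linked gene Ddx3y. Both genes were chosen after values had been seen.

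The 4 genes lie on the minus strand of chromosome 4 in the GRCm38 annotation of GENCODE M21. Mup7 spans chr4:60066469-60070475, Mup20 chr4:62050234-62054158, Mup3 chr4:62083476-62087342 and Mup21 chr4:62147932-62150863. Mup21 is the last Mup gene before Zfp37, whose annotated span begins at 62189540. The authors' reads were mapped to the build mm9, so these positions serve to describe the genes and not the authors' counting. The coding sequences are 552 bases long in Mup3, 540 in Mup7 and 543 in both Mup20 and Mup21. Mup3 and Mup21 are 94.7% identical over the coding sequence. Mup7 is 99.3% identical to Mup12, and its median identity to the other 21 coding Mup genes is 98.7%. Mup20 is at most 91.3% identical to another Mup gene, with Mup11 and Mup18 the closest.

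Reads were 50 bases long, and this length decides how far a read can be assigned to 1 copy. The coding stretch below, bases 485 to 534 of Mup7, shows the problem. It is present without a difference in 17 coding Mup genes, among them Mup2. Capitals mark bases that differ from Mup7, and the aligned stretch has 3 differences in Mup20, 3 in Mup3 and 4 in Mup21.
Mup7: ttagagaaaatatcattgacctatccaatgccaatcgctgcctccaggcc
Mup2: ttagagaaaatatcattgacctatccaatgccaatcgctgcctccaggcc
Mup20: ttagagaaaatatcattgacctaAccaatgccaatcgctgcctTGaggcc
Mup3: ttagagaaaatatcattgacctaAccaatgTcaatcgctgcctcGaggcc
Mup21: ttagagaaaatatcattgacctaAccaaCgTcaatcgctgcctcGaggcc

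A read of this stretch from Mup7 could equally come from 16 other genes, whereas a read from Mup3, Mup20 or Mup21 carries bases that the central copies lack. Every stretch of 50 bases in the members' annotated transcripts was looked up in all other annotated transcripts. Of Mup7's 1081 stretches 86.7% had an exact copy in another gene, against 13.3% of 1115 in Mup3 and 19.3% of 628 in Mup21, where 17.8% of stretches were shared with Mup3. In Mup20 50.5% of 879 stretches had an exact copy, and 48.0% were shared with Mup-ps19, an unprocessed pseudogene (a gene copy that kept its introns) of the same cluster. With up to 2 mismatches allowed, and other Mup genes alone searched, the shares were 53.3% in Mup3, 95.5% in Mup7, 73.2% in Mup20 and 66.2% in Mup21. Values of Mup7 therefore cannot be assigned to that gene alone, and those of Mup20 depend on how reads were divided with Mup-ps19.

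**Figure D1:**
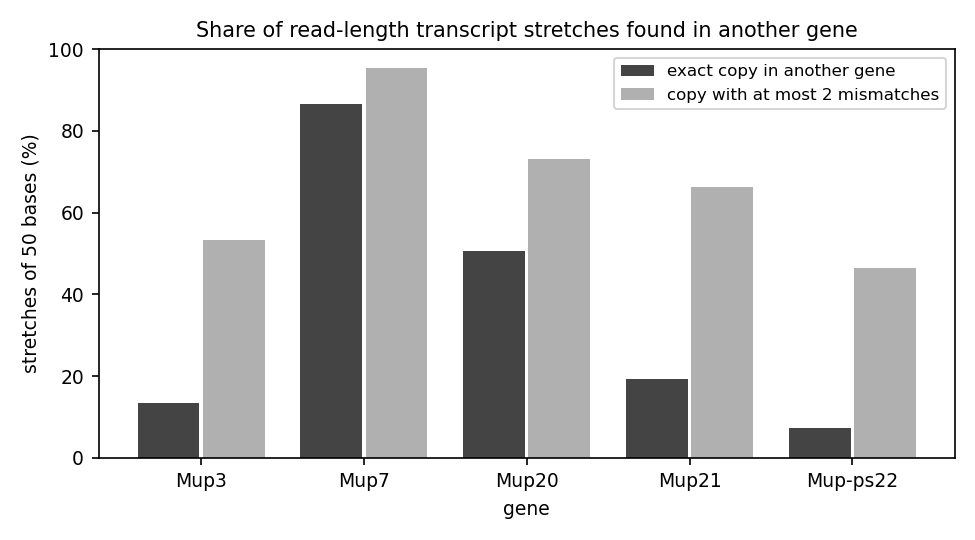
Percent of the stretches of 50 bases (the read length) in each gene's annotated transcripts that have an exact copy in another gene (dark bars) or a copy with at most 2 mismatches in another Mup gene (light bars). Of the 5 genes plotted Mup7 has the highest bars (86.7% and 95.5%) and Mup-ps22, a pseudogene described with the other copies, the lowest (7.2% and 46.4%).

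Libraries held between 18.2 M and 52.8 M counts in all (M, mega), and the deposited values were read counts that never fell below 1. Levels are given as CPM, the counts of a gene per mega counts of its library, after scaling by edgeR's TMM factors. Sample titles start with a number, 1 for LFLS 1 to 4 and HFHS 1 to 4, and 2 for the rest, and the labels do not say what it marks. The number 1 LFLS libraries stood apart: over 16351 genes (94.9% of those tested), deviation from the gene's mean correlated with the gene's GC content at 0.21 to 0.60 there, against -0.21 to 0.05 in the number 1 HFHS libraries. In the number 2 libraries the ranges overlapped, at -0.37 to -0.25 for LFLS and -0.42 to -0.11 for HFHS. Mitochondrial transcripts took 1.40% to 3.77% of the counts in LFLS 1 to 4 and 4.24% to 5.10% in the other 10 libraries. Values within each title number are therefore printed beside the pooled ones.

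Of the 4 genes Mup20 had the smallest p, with a lower median in the HFHS livers and a difference that did not pass the test across all genes. Mup20 stood at a lowest 192, a median 301 and a highest 758 CPM in LFLS and at 68.4, 189 and 277 CPM in HFHS. All 7 HFHS libraries lay below the LFLS median, but the diets overlapped: 3 HFHS libraries exceeded LFLS 1, the lowest of its diet. LFLS had a mean of 381 CPM ± 199 (SD, n = 7), HFHS one of 170.0 CPM ± 70.1 (SD, n = 7). The log2 difference, HFHS minus LFLS, was -1.17 ± 0.33 (SE), and the quasi-likelihood test of edgeR gave a Benjamini-Hochberg adjusted p of 0.0687 over 17223 genes, so Mup20 was not called at the threshold of 0.05. Calls in either direction were made for 2.81% of the tested genes, 1.44% of them lower and 1.37% higher on HFHS.

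Mup20 lay on either side of that threshold depending on the test, while its estimate stayed below 0, and it was past the threshold in 5 of 26 alternatives. DESeq2 put the log2 difference at -1.38 (adjusted p = 0.00349) and called 0.761% of genes as lower on HFHS. With limma voom and sample quality weights the difference was -1.10 and the adjusted p 0.0178, where 9.05% of genes were called lower. Without LFLS 1, whose GC correlation was the highest, edgeR gave -1.28 and an adjusted p of 0.0419, with 2.15% of genes called lower. Leaving out each of the 14 libraries in turn moved the estimate between -1.33 (without HFHS 7) and -0.89 (without LFLS 7).

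Within title number 1, Mup20 spanned 192 to 526 CPM in 4 LFLS libraries and 68.4 to 199.7 CPM in 4 HFHS libraries. The log2 difference there was -0.90 ± 0.39 (SE), adjusted p = 0.164 by edgeR. Within title number 2, where the GC values of the diets overlapped, Mup20 spanned 301 to 758 CPM in 3 LFLS libraries and 93.5 to 277 CPM in 3 HFHS libraries. The difference was -1.42 ± 0.45 (SE), adjusted p = 0.137 by edgeR. Ranges of 3 against 3 libraries separate easily, and the share of all genes that do so was not counted. Mup20 was thus lower on HFHS within both title numbers, without a call in either.

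Mup3, the most abundant of the 4 per length, showed a small difference that did not pass the test. Mup3 stood at a lowest 1456, a median 2496 and a highest 3561 CPM in LFLS, against 692, 2197 and 2896 CPM in HFHS. The ranges overlapped widely, with 5 of 7 HFHS libraries above the lowest LFLS library. LFLS had a mean of 2425 CPM ± 812 (SD, n = 7), HFHS one of 2020 CPM ± 805 (SD, n = 7). The log2 difference was -0.26 ± 0.29 (SE), adjusted p = 0.646 by edgeR. The estimate was 0.15 within title number 1 and -0.68 within number 2, so its direction differed between them. Among LFLS libraries Mup3 ran from 1456 to 2496 CPM in number 1 and from 2878 to 3561 CPM in number 2, without overlap. Mup21 did so too, at 77.7 to 178 CPM in number 1 and 271 to 310.2 CPM in number 2. The share of all genes with such a split was not counted.

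Mup21, whose coding sequence is the closest to that of Mup3, varied with it from library to library. Mup21 stood at a lowest 77.7, a median 178 and a highest 310.2 CPM in LFLS and at 20.8, 145 and 229.9 CPM in HFHS. The diets overlapped, and 6 of 7 HFHS libraries exceeded the lowest LFLS library. LFLS had a mean of 193 CPM ± 94.9 (SD, n = 7), HFHS one of 140.4 CPM ± 64.5 (SD, n = 7). Its log2 difference was -0.46 ± 0.40 (SE), adjusted p = 0.558 by edgeR. The difference was -0.00 within title number 1 and -0.78 within number 2. In number 2 Mup21 spanned 271 to 310.2 CPM in 3 LFLS libraries and 108 to 229.9 CPM in 3 HFHS libraries. How many of all genes separate in this way was not counted.

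Mup7 had the lowest levels and the widest spread, and its difference between diets rested on 1 library. Mup7 stood at a lowest 2.59, a median 5.81 and a highest 125 CPM in LFLS and at 0.284, 7.00 and 15.1 CPM in HFHS. LFLS 4 held the highest value, more than any other library by far, and the next LFLS library was LFLS 2 at 12.0 CPM. The median was higher on HFHS while the mean was lower. LFLS had a mean of 23.7 CPM ± 44.7 (SD, n = 7) and HFHS one of 6.53 CPM ± 5.93 (SD, n = 7). The log2 difference was -1.87 ± 0.94 (SE), adjusted p = 0.285 by edgeR, and it was -0.08 (adjusted p = 0.968) without LFLS 4. DESeq2, which by default replaces extreme counts in groups of 7, gave -0.20. Within title number 2, which does not hold LFLS 4, the difference was -1.12 with an adjusted p of 0.408.

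**Figure D2:**
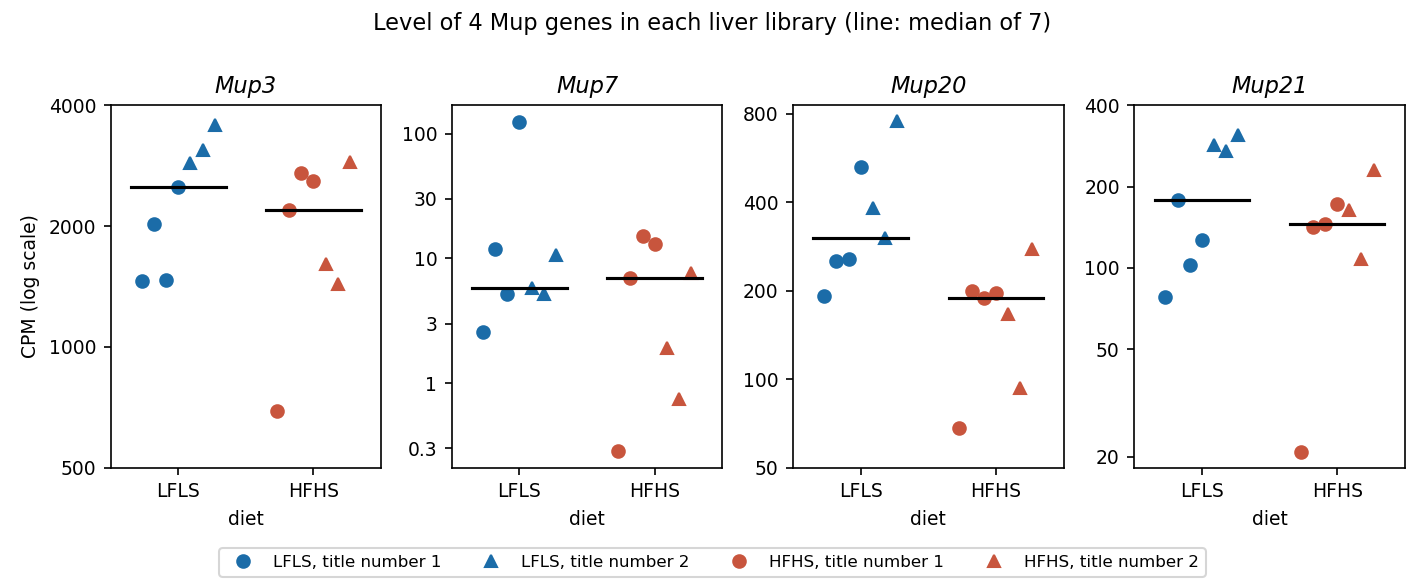
Level of Mup3, Mup7, Mup20 and Mup21 in each library in CPM on log axes, with the diets side by side, circles for title number 1, triangles for title number 2 and a line at the median of 7 libraries. HFHS 1 is the lowest library in each panel, the Mup20 medians are 301 CPM in LFLS and 189 CPM in HFHS, and Mup7 reaches 125 CPM in LFLS 4.

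HFHS 1 was the lowest of all 14 libraries in each of the 4 genes, and LFLS 7 was the highest in Mup3, Mup20 and Mup21. HFHS 1 also had the lowest summed level of 15 hepatocyte marker genes, 89680 CPM, where the HFHS libraries ran to 137400 CPM and the LFLS libraries from 118100 to 162800 CPM. This sum mostly follows Alb, which had a mean of 70660 CPM on HFHS where the sum had one of 121000 CPM. None of the 15 hepatocyte markers was called by edgeR, with 8 at an unadjusted p under 0.05, beside 3378 of 17223 tested genes. Of the markers DESeq2 called 2 and limma voom 4, beside 273 of 22339 and 3274 of 17223 tested genes. The markers' median log2 difference was -0.33. In a piece of tissue fewer hepatocytes and less Mup RNA per hepatocyte cannot be told apart. HFHS 1 also had the highest summed levels of 10 stellate cell markers, 761 CPM against 270.5 to 365 CPM in the other libraries, of 9 bile duct markers, 165 CPM against 57.3 to 106 CPM, and of 12 macrophage markers, 647 CPM beside 645 CPM in LFLS 4. The part of these cell types in the Mup values was not tested. Without HFHS 1 the log2 differences were nearest to 0 for Mup3 (-0.11) and Mup21 (-0.27) among the 14 fits that left out 1 library.

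Whether the diet difference itself changed with the title number was tested with an interaction term in edgeR. The interaction was -0.82 ± 0.54 (SE, log2) for Mup3, adjusted p = 0.383, and 0.91 ± 1.77 for Mup7, adjusted p = 0.789. For Mup20 it was -0.52 ± 0.65, adjusted p = 0.664, and for Mup21 -0.77 ± 0.70, adjusted p = 0.536. None of the 4 was called or had an unadjusted p under 0.05, where 0.883% of all tested genes were called, and the standard errors leave room for sizeable differences between title numbers.

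**Figure D3:**
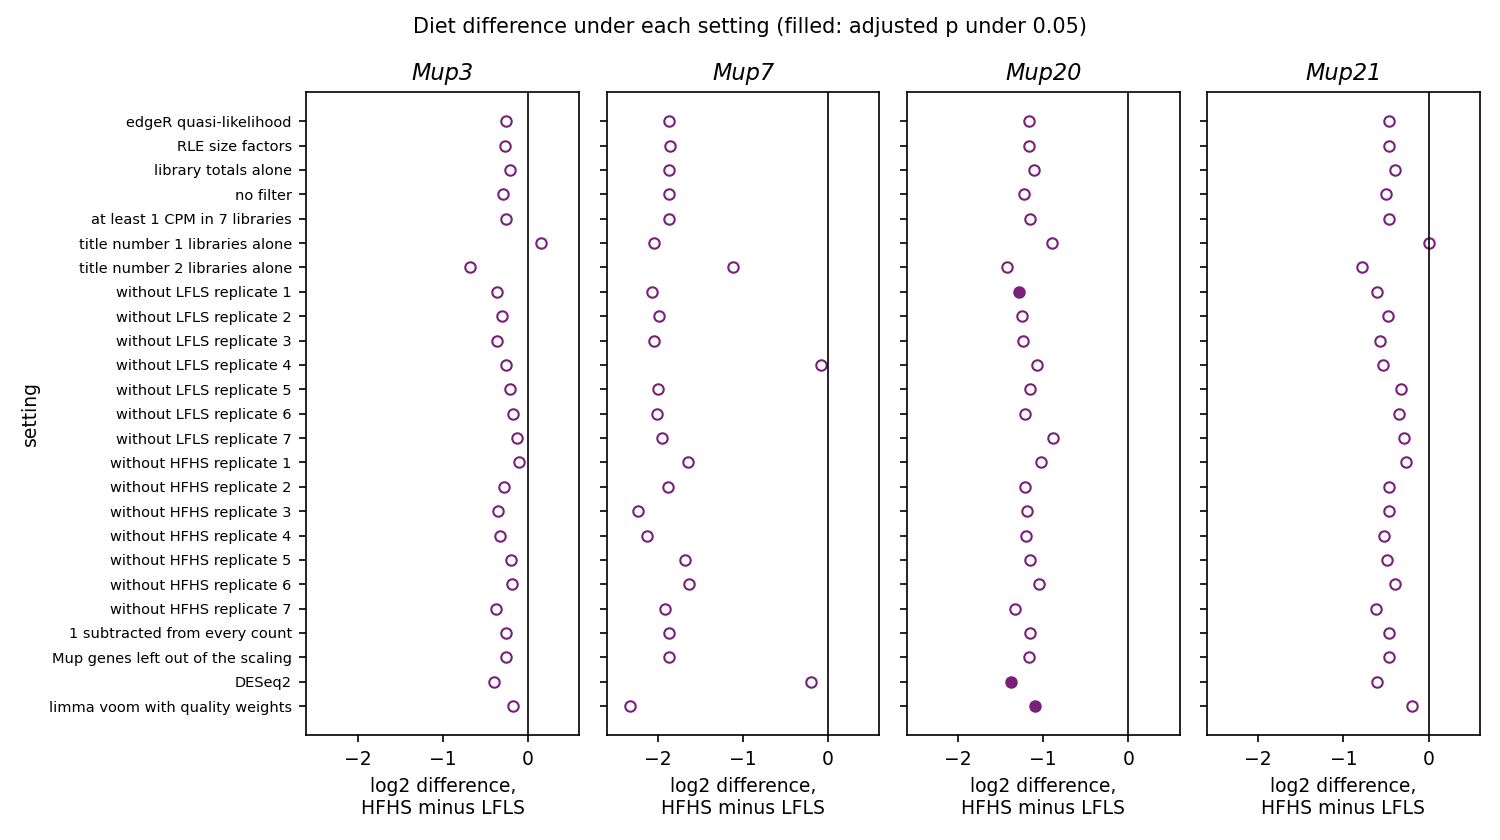
Log2 difference, HFHS minus LFLS, of the 4 genes under the edgeR test and the other settings, with filled circles where the adjusted p was under 0.05. The settings that entered title number or title pairs as a replicate block are not plotted. Mup20 stays between -1.42 and -0.89 and has filled circles without LFLS 1, by DESeq2 and by limma voom. Mup7 moves to -0.08 without LFLS 4, and Mup3 lies at 0.15 in title number 1 libraries alone.

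The authors' deposited table gave a log2 fold change of -1.38 for Mup20, between a pair of groups that its header does not name. The same column of the authors' deposited table held -1.97 for Mup7, -0.60 for Mup21 and -0.40 for Mup3. The adjusted p in the authors' deposited table was 1.0 for each of the 4 genes, beside an unadjusted p of 0.01 for Mup20.

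The proportion of Mup3 to Mup20 was higher in most HFHS livers. The log2 ratio of Mup3 to Mup20 counts within a library, in which depth and scaling cancel, averaged 2.74 ± 0.42 on LFLS and 3.57 ± 0.27 on HFHS (SD, n = 7 each). It ran from 2.23 to 3.36 in LFLS and from 3.27 to 3.94 in HFHS, so the diets overlapped only narrowly. By contrast the log2 ratio of Mup3 to Mup21 was 3.75 ± 0.38 on LFLS and 3.98 ± 0.56 on HFHS (SD, n = 7). It ran from 3.34 to 4.30 in LFLS and from 3.29 to 5.05 in HFHS. The log2 ratio of Mup20 to Mup21 was 1.01 ± 0.67 on LFLS and 0.41 ± 0.62 on HFHS. These ratios describe the libraries and were not tested.

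Levels of different genes can be compared only per length of transcript. Divided by the kilobases of annotated exon, the median LFLS level was 2337 CPM per kilobase for Mup3, 325 for Mup20, 263 for Mup21 and 5.62 for Mup7. On HFHS the medians were 2057 for Mup3, 204 for Mup20, 215 for Mup21 and 6.77 for Mup7. Mup20 and Mup21, next to each other in level, overlapped within each diet: 207 to 817 against 115 to 458 CPM per kilobase on LFLS, and 73.7 to 298 against 30.8 to 339.6 on HFHS. Mup3 lay above both in each diet. Mup7 lay below both on HFHS, and on LFLS its highest value, 121 CPM per kilobase in LFLS 4, exceeded the lowest of Mup21.

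Nearly every estimate in the family lay below 0. Of the 42 Mup genes 24 had enough counts to be tested, the 4 members and 20 others, and the 18 untested ones never exceeded 4.48 CPM. By edgeR 0 of the 24 were called and 6 had an unadjusted p under 0.05, beside 484 and 3378 of all 17223 tested genes. Of the 24 limma voom called 3 and DESeq2 4 (Mup20, Mup18, Mup-ps20 and Mup-ps21), all lower on HFHS. Over all genes limma voom called 9.05% lower and DESeq2 0.761%. DESeq2 tested 36 Mup genes and called another 2 of them lower, Mup19 and Mup-ps14. Estimates were below 0 for 23 of 24, against 51.3% of all tested genes, and the median log2 difference was -1.07 against -0.01 over all genes. With RLE size factors and with library totals alone the count was also 23 of 24, while it was 19 of 24 without LFLS 4, 21 of 24 without LFLS 1, 21 of 25 in the number 1 libraries alone and 19 of 23 in the number 2 libraries alone. Genes that share reads are not separate measurements, so the count of 23 does not stand for 23 independent genes. None of the 24 had diets that did not overlap, where 1.65% of all tested genes did.

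The lowest estimates belonged to a pair of pseudogenes beside Mup20. Mup-ps20 (chr4:62012412-62014857) had a log2 difference of -2.91 ± 0.91 (SE), adjusted p = 0.0937, and Mup-ps21 (chr4:62029342-62031662) one of -2.67 ± 0.75, adjusted p = 0.0654, both by edgeR. Mup-ps21 passed the threshold without LFLS 1 (edgeR adjusted p = 0.0268), and both passed by DESeq2 and limma voom. Mup-ps21 stood at a lowest 4.82, a median 66.0 and a highest 281 CPM in LFLS and at 1.60, 14.8 and 38.4 CPM in HFHS. The highest estimate was that of Mup10, a central coding copy, at 0.17 ± 0.32 (SE), adjusted p = 0.806, and it was the one tested Mup gene above 0. Among other coding copies the differences were -1.40 for Mup18, -1.31 for Mup16, -1.12 for Mup9, -1.09 for Mup17, -1.05 for Mup11 and -0.48 for Mup12, with adjusted p of 0.115 (Mup18) or more by edgeR. For the remaining ones they were -1.73 for Mup2, -1.62 for Mup5, -0.73 for Mup14, -0.72 for Mup15 and -0.43 for Mup6. The other pseudogenes tested were Mup-ps17 at -1.60, Mup-ps18 at -1.45, Mup-ps13 at -0.99, Mup-ps22 at -0.73, Mup-ps19 at -0.36 and Mup-ps16 at -0.08.

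**Figure D4:**
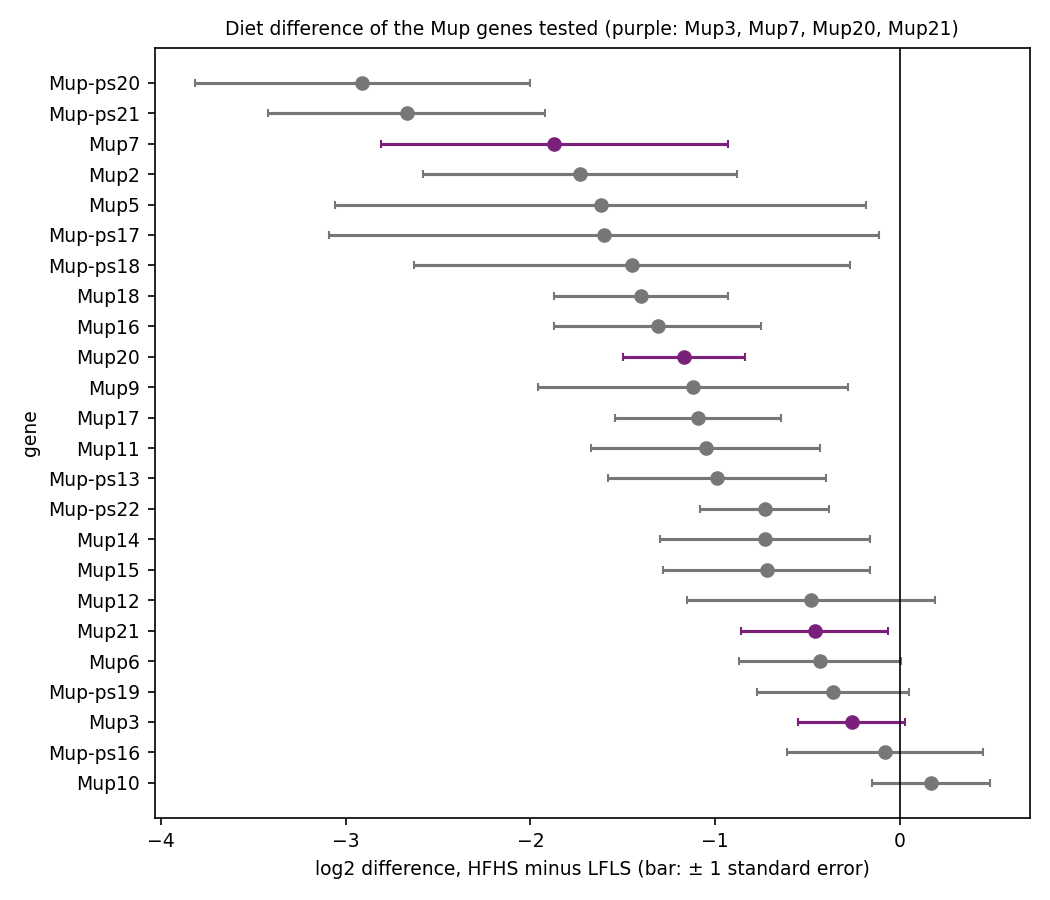
Log2 difference, HFHS minus LFLS, with its standard error for the 24 Mup genes tested by edgeR, ordered by estimate, with the 4 members in purple. Estimates run from -2.91 (Mup-ps20) to 0.17 (Mup10), none was called, and Mup20 has a shorter bar than Mup7.

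Deposited counts of several Mup genes, Mup7 among them, were nearly the same number in some libraries. Mup7 and Mup2 lay within 10% of each other in 9 of 14 libraries, and in LFLS 4 their counts were 3813 and 3823. Mup14 and Mup15 lay within 10% in 13 libraries and never differed by more than 9 counts. Mup5 and Mup-ps17 lay within 10% in 10 libraries, and Mup-ps20 and Mup-ps21 in 9. In LFLS 4 the counts of Mup5, Mup-ps17, Mup-ps18, Mup-ps20 and Mup-ps21 all fell between 8429 and 8540, while in LFLS 7 the same genes ran from 44 to 11144. The sources used here do not give how reads that fit several copies were counted.

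**Figure D5:**
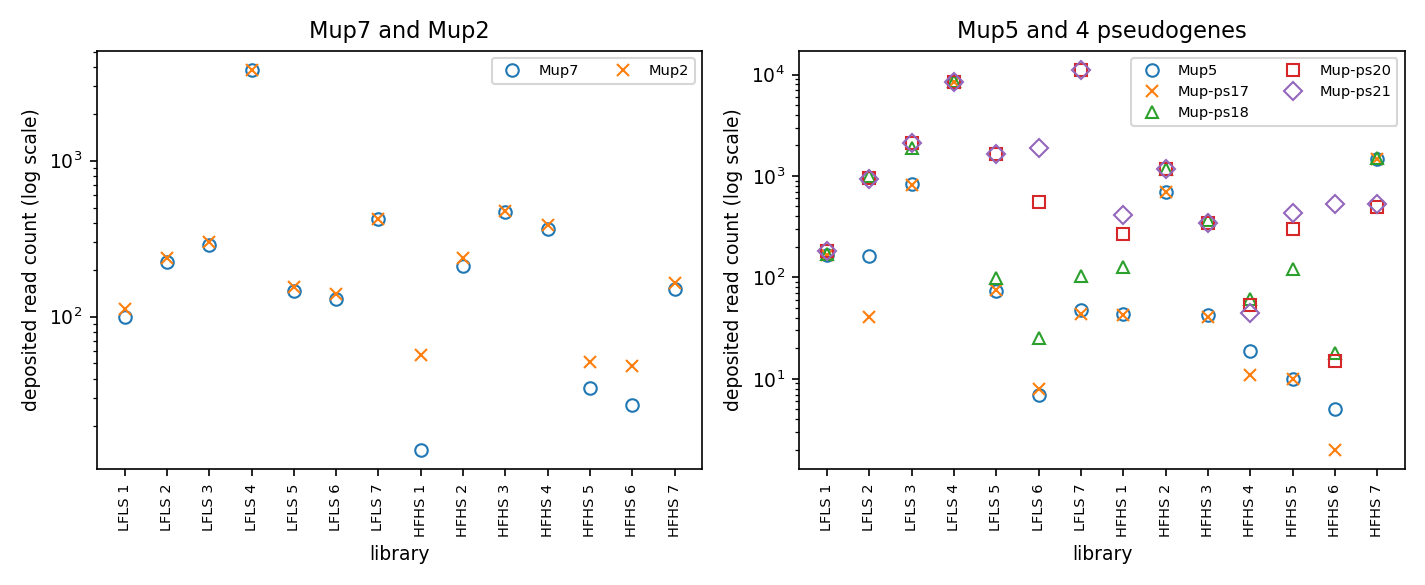
Deposited read counts in each library on log axes, for Mup7 and Mup2 (left) and for Mup5 and 4 pseudogenes (right). Mup7 and Mup2 overlie each other at about 3813 counts in LFLS 4, and the 5 genes on the right coincide in LFLS 4 (8429 to 8540) but spread from 44 to 11144 in LFLS 7.

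A pseudogene outside the cluster held a large part of the family's counts. Mup-ps22 is a processed pseudogene (a copy made from spliced RNA) at chr11:55123695-55123937 (GRCm38, GENCODE M21). It stood at a lowest 1346, a median 2706 and a highest 3411 CPM in LFLS and at 353, 1885 and 2264 CPM in HFHS, with a log2 difference of -0.73 ± 0.35 (SE), adjusted p = 0.258 by edgeR. With 243 bases it had the highest level per length of the Mup genes, at a median of 11140 CPM per kilobase on LFLS. Among the coding Mup genes 1 stretch of its sequence is found without a difference in Mup20 alone, and it is shown as an example of the sequence these 2 genes share. Capitals mark bases that differ from Mup-ps22.
Mup-ps22: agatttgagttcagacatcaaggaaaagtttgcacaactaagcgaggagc
Mup20: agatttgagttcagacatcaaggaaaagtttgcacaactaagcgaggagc
Mup7: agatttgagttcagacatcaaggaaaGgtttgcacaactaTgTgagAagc
Mup3: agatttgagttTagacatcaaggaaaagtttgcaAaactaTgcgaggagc
Mup21: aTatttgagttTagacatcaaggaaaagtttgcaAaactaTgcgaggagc

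Over the 14 libraries the log2 CPM of Mup-ps22 correlated with Mup20 and with Mup3 at 0.88 each, with Mup7 at 0.84 and with Mup21 at 0.83. Mup-ps19, which shares 48.0% of Mup20's stretches, had a log2 difference of -0.36, nearer to 0 than that of Mup20, and it correlated with Mup20 at 0.81. Whether the differences of Mup20 and Mup-ps19 differ from each other was not tested. The 14 points of each correlation share their library's depth and composition, and the part of reads that fit 2 genes was not tested.

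All 42 Mup genes together took a mean of 0.637% ± 0.201 of a library's counts on LFLS and 0.444% ± 0.200 on HFHS (SD, n = 7 each). The share was 0.327% at the lowest, 0.638% at the median and 0.884% at the highest on LFLS, and 0.142%, 0.537% and 0.663% on HFHS. How reads that fit several copies enter this sum is not known. The difference of the means was -0.193 percentage points, and the ranges of the diets overlapped. The share was a description and was not tested. The 4 members took 46.6% of all Mup counts on LFLS and 55.0% on HFHS as a mean over libraries, most of it from Mup3 with 37.7% and 47.7%. Mup20 took 5.70% of Mup counts on LFLS and 4.05% on HFHS.

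Mup3 and Mup21 varied together over the 14 libraries, with a correlation of log2 CPM of 0.92, and of 0.92 after each diet's mean was removed. Their promoters are shown for this reason, each as the 250 bases before the start annotated by RefSeq (GRCm38.p6, minus strand, written in the direction of the gene), at chr4:62087318-62087567 for Mup3 and chr4:62150842-62151091 for Mup21. GENCODE places both starts slightly upstream, so the last bases of each window are transcribed in that annotation. Capitals mark TGTTCT, a recognition sequence known for binding by the glucocorticoid receptor.
Mup3: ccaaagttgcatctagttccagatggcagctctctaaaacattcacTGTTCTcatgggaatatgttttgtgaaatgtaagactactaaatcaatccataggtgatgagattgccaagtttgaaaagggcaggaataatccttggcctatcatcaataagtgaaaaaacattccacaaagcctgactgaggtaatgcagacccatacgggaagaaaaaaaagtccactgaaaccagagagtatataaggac
Mup21: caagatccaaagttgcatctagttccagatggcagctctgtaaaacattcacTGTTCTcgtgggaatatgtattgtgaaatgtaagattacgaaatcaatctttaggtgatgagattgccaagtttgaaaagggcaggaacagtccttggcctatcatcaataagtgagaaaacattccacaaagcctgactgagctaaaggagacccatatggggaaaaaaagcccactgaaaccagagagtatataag

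The 2 windows are 89.1% identical. On both strands 4 motifs were searched: TTCNNNGAA of STAT5, TATAAA of the TATA box, TGTTCT, and TTGCNNAA of C/EBP. TGTTCT stands once in each, 204 bases before the start in Mup3 and 198 in Mup21, and 16.2% of 27025 mouse promoters of this length hold it. The other 3 motifs had no match in these windows or in that of Mup7, and they occur in 7.2% (STAT5), 13.0% (TATAAA) and 9.6% (C/EBP) of the promoters. Only the exact letters TATAAA were searched, and both windows hold the similar tatataag near their end. The window of Mup7 ends before the stretch where that of Mup2 holds tatataag. The missing match therefore does not show that a TATA box is absent. RefSeq entries were matched for 3 of the 4 members, all but Mup20. A match describes the letters of the window and is no measure of binding.

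Other correlations between members were lower than that of Mup3 with Mup21: 0.80 for Mup3 with Mup20, 0.77 for Mup7 with Mup20, 0.73 for Mup20 with Mup21 and for Mup3 with Mup7, and 0.55 for Mup7 with Mup21. Outside the family, the 5 genes most like each member were taken from the 17223 tested genes by the correlation of log2 CPM over the 14 libraries. Mup20 was most like Cyp7b1, an oxysterol hydroxylase higher in male liver, at 0.96 (0.93 after the diet means were removed). The next were C6, a complement component, at 0.95, Serpine2, a protease inhibitor, at 0.91, and Scara5, a ferritin receptor, and Serpina1e, an alpha-1-antitrypsin gene, at 0.90 each. Scara5 was called, with a log2 difference of -2.24 and an adjusted p of 0.0320 by edgeR, and the other 4 were not, at -1.30 for Cyp7b1, -1.15 for C6, -0.90 for Serpine2 and -2.02 for Serpina1e.

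Mup3 was most like C4a, the sex-limited form of complement component 4, at 0.94, then Ttc39c at 0.93, the organic anion transporter gene Slco1a1 at 0.92, and Gm14668 and the orexin receptor gene Hcrtr2 at 0.91 each. Mup21 was most like Gm14668 and Slco1a1 at 0.94 each, then Serpina3k at 0.92, and Serpine2 and Fras1 at 0.90 each. Slco1a1, known for higher levels in male liver, and Gm14668 were thus near both, and Serpine2 near Mup20 and Mup21. Mup7 was most like Plcxd2 at 0.91, Gm15638, Ddx19b and Lrrc18 at 0.89 each and Tmem19 at 0.85. None of the 13 genes near Mup3, Mup7 and Mup21 was called by edgeR, with adjusted p from 0.138 (Serpina3k) to 0.641 (C4a). C4a, Serpina1e and Serpina3k have close copies of their own, so their counts are uncertain in the same way as those of the Mup genes.

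A list of 21 genes covered the growth hormone, JAK2 and STAT5 pathway, its feedback and related receptors and factors, and all were tested. Their RNA levels do not measure the activity of the pathway. By edgeR 2 were called higher, 2 lower and 17 not, beside 1.37% of all genes called higher and 1.44% lower, and the list's median log2 difference was -0.10. Over 26 alternatives 0 to 3 were called higher and 0 to 6 lower. Prlr, the prolactin receptor of the same receptor family, rose by 0.83 ± 0.15 (SE, adjusted p = 0.0134) from 71.2 CPM ± 17.3 to 127 CPM ± 22.0 (SD, n = 7), without overlap. Ghitm, a mitochondrial inner membrane protein named for induction by growth hormone, rose by 0.45 ± 0.10 (adjusted p = 0.0281), also without overlap. Lepr, the leptin receptor, fell by 2.09 on the log2 scale (adjusted p = 0.0168), and Onecut1, a liver transcription factor, fell by 2.10 (adjusted p = 0.0439). The steps of the cascade itself were not called, and they are named here for their role after values had been seen. The log2 differences were 0.32 for the growth hormone receptor gene Ghr, 0.18 for Jak2, 0.11 for Stat5a, -0.10 for Stat5b and -2.09 (adjusted p = 0.0575) for Cish, a feedback inhibitor.

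Other regulators of liver transcription were read from a list of 25 genes, of which 2 were called and 23 were not by edgeR, beside 2.81% of all genes called. Foxa1, a factor that opens chromatin in liver, fell by 0.62 (adjusted p = 0.0439), from 23.6 to 15.4 CPM. Hnf4a, a nuclear receptor of hepatocyte identity, had a log2 difference of -0.51 (adjusted p = 0.0518), and Zhx2, a homeobox factor known for silencing of fetal liver genes after birth, one of -0.28 (adjusted p = 0.0761).

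Among other genes known to be higher in male liver, each of those called by edgeR was lower on HFHS. The list was drawn up with earlier results of these data known, so its counts are no independent test. Of 28 such genes, with no Mup gene among them, 27 were tested: 8 fell, 0 rose and 19 were not called by edgeR, beside 1.44% of all genes called lower. The list's median log2 difference was -1.03, against -0.01 over all tested genes and -0.82 over the 4 members. Moxd1, a monooxygenase-like gene, fell from 76.1 CPM ± 74.7 to 1.00 CPM ± 0.874 (SD, n = 7), a log2 difference of -6.29 ± 0.87 (SE, adjusted p = 0.00254). Cyp1a2, a cytochrome P450, fell by 0.87 (adjusted p = 0.0145), and Gstp1, a glutathione transferase, fell by 1.14 (adjusted p = 0.0148). Its near-identical neighbour Gstp2 fell by 1.69 (adjusted p = 0.0236), and the counts of these 2 cannot be separated with certainty. In the number 2 libraries alone 7 of 28 were called lower and 0 higher, beside 0.794% of all genes called lower. By limma voom 17 were called lower and 1 higher, where 9.05% of all genes were called lower. The count of 8 moved to 14 without LFLS 1, to 5 without LFLS 2, LFLS 4, LFLS 5 or LFLS 7, to 4 without HFHS 5 or HFHS 7 and to 3 without HFHS 2 or HFHS 6.

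Of 36 matched genes known to be higher in female liver, 30 were tested: 9 rose, 0 fell and 21 were not called by edgeR, beside 1.37% of all genes called higher. Their median log2 difference was 0.57. This list too was drawn up with earlier results of these data known, so its counts are no independent test. Raet1d, a ligand of an immune receptor, rose by 1.98 ± 0.24 (SE, adjusted p = 0.00113) and Cyp2b9, a cytochrome P450, by 8.56 ± 1.24 (adjusted p = 0.00334). Cyp2b9 stood at 0.0327 to 0.320 CPM in LFLS, near the floor of the counts, and at 1.32 to 272 CPM in HFHS. The size of its rise is therefore uncertain. Abcd2, a peroxisomal transporter, rose by 1.58 ± 0.29 (adjusted p = 0.0118), and Prlr, named above, is on this list too. In the number 2 libraries alone 5 of 31 were called higher, beside 0.788% of all genes.

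Of the other secreted carriers of the liver 1 of 16 tested genes was called lower and 0 higher by edgeR, beside 1.44% of all genes called lower, with a median log2 difference of -0.09. Over the alternatives 1 to 5 were called lower and 0 to 2 higher, with the most by limma voom, which called 9.05% of all genes lower. Apom, a lipocalin of lipoproteins that binds sphingosine 1-phosphate, fell by 0.89 ± 0.14 on the log2 scale (SE, adjusted p = 0.00467), from 124 CPM ± 16.3 to 66.7 CPM ± 15.1 (SD, n = 7), with no overlap. The lipocalins Orm1 and Ambp had differences of -0.67 (adjusted p = 0.103) and -0.32 (adjusted p = 0.132), and Hpx, the heme carrier, one of -0.58 (adjusted p = 0.141).

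A list of genes around the Mup cluster on chromosome 4 had a median estimate near 0, but not all of them lie next to the cluster. Klf4, Ptgr1, Akna, Zfp462 and Fsd1l lie farther from it than the other tested genes of the list. Some closer genes, such as E130308A19Rik, are not on the list. Of 18 tested by edgeR 0 were called, 0 had an unadjusted p under 0.05, and DESeq2 and limma voom called 0. Their median log2 difference was -0.01. The smallest p values belonged to Klf4 (0.36), Fkbp15 (-0.12), Ptgr1 (0.22) and Snx30 (-0.13), whose adjusted p ran from 0.323 to 0.523. Of 8 genes for pheromone partners of Mup proteins in other tissues 4 were matched: Obp1a, Obp1b and Vmn2r116 stood at the lowest count in all libraries, and Trpc2 differed by 0.09 (adjusted p = 0.764 by edgeR).

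Markers of other tissues that make Mup proteins were mostly low. Of 7 matched salivary and lacrimal gland genes Prol1, Smr2 and Lpo stood at the lowest count in all libraries. Dmbt1, an epithelial gene, was the one tested (log2 difference -1.84, adjusted p = 0.413 by edgeR), and the 7 genes summed to 0.321 to 58.7 CPM in LFLS and 0.589 to 14.8 CPM in HFHS. The part of these tissues in the Mup values was not tested. Exocrine pancreas genes, which dissection can carry over, summed to 19.0 to 2010 CPM in LFLS, highest in LFLS 2, and to 16.6 to 543 CPM in HFHS. By edgeR 0 of their 15 tested genes were called, with 0 at an unadjusted p under 0.05 and 0 by DESeq2 or limma voom. LFLS 4, the library with the high Mup7 count, had 106 CPM. Of 8 bile duct genes tested 1 was called, lower on HFHS (Tff3, on the male list too), and of 6 T and B cell genes 1, higher (Ighm), beside 1.44% of all genes called lower and 1.37% higher. Of 12 macrophage, 10 endothelial, 10 stellate cell and 2 adipocyte genes 0 were called by edgeR, with 2, 0, 2 and 1 at an unadjusted p under 0.05, 0 by DESeq2 and 1, 0, 1 and 1 by limma voom. Over all 17223 tested genes 3378 had an unadjusted p under 0.05 by edgeR and limma voom called 3274.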

How the data were processed

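Per the submitters' processing notes, CASAVA 1.8, TopHat, Bowtie and DESeq were used with mm9. The sources used here do not give the counting tool, the annotation, the treatment of multiply mapped reads or whether the kit kept strand. The deposited table holds whole read counts of 37681 genes, never below 1. The authors' deposited table gives a fold change (ratio), its log2 and a p-value from DESeq, per the file headers, between a pair of groups that it does not name. It supplied gene symbols. A symbol on several identifiers was given to the one with most counts.

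Counts were tested in R 4.3.3 with edgeR 4.0.16 (TMM, its default filter, quasi-likelihood F test, no covariate, adjusted p under 0.05). The SE is the log2 difference divided by the square root of F. Libraries come from separate mice as far as the labels show. DESeq2 1.42.0 and limma 3.58.1 voom, other scalings, filters and left-out libraries were alternatives. The fit was also run on simulated counts without effects of title number, GC content or shared reads, so that run does not bear on these. Correlations used log2 CPM with a prior count of 2. Named genes were the 4 members, other Mup genes, up to 4 genes per list by smallest p and the 5 most alike per member. Members, lists and tests were chosen with earlier results of these data known. Stretches of 50 bases came from GENCODE M21. The values of 1 called gene of the list of transcription regulators are not reported here.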

Additional observations from a re-analysis of the deposited data

Results flagged for a closer look

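Values in a diet's 7 libraries were compared by the gap of the highest or lowest library to its neighbour over the range (Dixon's test, critical value 0.568), in 22 groups, of which chance flags about 1 in 20. Mup7 was flagged in LFLS 4, at 125 CPM with the next LFLS library at 12.0 CPM, a gap of 0.923 of the range. The log2 ratios of Mup3 to Mup7 and of Mup7 to Mup21 were flagged in the same library, at 4.32 with the next at 7.40 and at -0.03 with the next at -3.89, and both rest on the same Mup7 count. The log2 ratio of Mup20 to Mup21 was flagged in HFHS 1, at 1.72 with the next HFHS library at 0.49, where both genes had their lowest CPM.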

How the results depend on the processing

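The members kept the direction of their log2 difference and their side of the threshold in 26 alternatives for Mup7 and Mup21, in 25 for Mup3 and in 21 for Mup20. Mup3 turned to 0.15 in title number 1 libraries alone, Mup2 to 0.01 without LFLS 4 and Mup10 to -0.32 in title number 2 libraries alone. Mup20 passed the threshold by DESeq2 (-1.38) and limma voom (-1.10). Over the 14 fits that left out 1 library the ranges were -1.33 to -0.89 for Mup20 (called without LFLS 1), -2.23 to -0.08 for Mup7, -2.04 to 0.01 for Mup2, -0.62 to -0.27 for Mup21 and -0.37 to -0.11 for Mup3. The cause of these shifts was not tested.

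With the title number as a replicate block Mup20 differed by -1.13 (adjusted p = 0.0417) and with the 7 title pairs as a replicate block by -1.15 (adjusted p = 0.011), both by edgeR, and no other member's call changed. Among the other Mup genes the number block changed the call of Mup-ps21 alone (-2.66, adjusted p = 0.0392), and the pair block none. Deviations from the diet means correlated at 0.129 between libraries of the same title number on different diets and at -0.134 otherwise, and over 0.1 in 4 of 7 pairs, so the labels and the data do not establish pairing. The number of called genes was 484 (236 higher, 248 lower). It was 1540 with the number block, 1484 and 269 in number 1 and number 2 libraries alone, 173 without a filter, 273 by DESeq2, 3274 by limma voom and 133 to 853 with 1 library left out. Scaling by totals alone called 379 higher and 152 lower. The count of male-biased genes called lower ran from 3 to 17 over all alternatives, and that of female-biased genes called higher from 5 to 16.

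The summed Mup share differed by -0.245 to -0.143 percentage points with 1 library left out. Counts of Mup7 in HFHS were 14 to 465, so its low values rest on few reads.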
